A study of Mus musculus with 15 samples.

Results

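The genes described here are those of AP-1, a transcription factor made of Fos, Jun and Atf proteins, together with Dusp1, Ier2 and Klf6, which are induced with them in the first hour of cell activation. All 10 named genes (Fos, Fosb, Fosl2, Jun, Junb, Jund, Atf3, Dusp1, Ier2 and Klf6) were found by symbol among the 19938 genes of the array, each with a single probe set. Microarrays covering whole transcripts measured RNA of germinal centre B cells sorted from the spleen of female mice on day 10 after immunization. There were 3 arrays of light zone cells of high affinity (Lzhi), 4 of light zone cells of low affinity (Lzlo), 4 of dark zone cells of high affinity (Dzhi) and 4 of dark zone cells of low affinity (Dzlo). In every group the cells were SwHEL B cells, which carry an engineered receptor for hen egg lysozyme and the CD45.1 marker. They had been transferred into C57BL/6J mice (CD45.2) that received sheep red blood cells coupled to the lysozyme mutant HEL3x. All were sorted as CD45.1+, CD45.2-, IgG1+ and CD38 low, the light zone cells by high CD86 with low CXCR4 and the dark zone cells by the reverse, and the labels do not say how the affinity gates were set. All groups therefore share the engineered receptor, and cells of a normal B cell repertoire were not measured. The values are RMA values on the log2 scale, and every error of a difference is its standard error in a limma fit of the 4 group means over all genes. The labels do not say whether arrays came from separate mice, so the spread behind each p-value is that between these arrays and may be technical. The fit leaves out the experiment codes that arrays of different groups share, and fits that use them are given at the end.

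Fos and Jun proteins pair through leucine zippers and bind DNA as AP-1, and Jun proteins can also pair with each other and with Atf proteins. Signals from the B cell receptor, CD40 and stress all reach these genes through MAP kinases, and Dusp1 encodes a phosphatase that switches MAP kinases off again. In the germinal centre the light zone is where B cells take up antigen and meet T cells, and the dark zone is where they divide and mutate. The same genes are also known to rise when tissue is dispersed and cells are handled before lysis.

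Promoters are shown for those of the 10 genes in which a motif of the pathway was matched. A RefSeq promoter (GRCm38.p6) was matched for 9 of the 10 genes, all but Ier2, and the 250 bases before the start were searched on both strands. The motifs were the cyclic AMP response element TGACGTCA, its core TGACGT, which the full element holds on each strand, the AP-1 site TGANTCA, the variant TGACATCA known from the Jun promoter and chosen after the sequences were seen, and the CArG box bound by serum response factor. Capitals mark the matches. The windows are chr12:85473640-85473889 on the + strand for Fos and chr4:95052223-95052472 on the - strand for Jun. The others are chr1:191183334-191183583 on the - strand for Atf3, chr17:26508473-26508722 on the - strand for Dusp1 and chr13:5861239-5861488 on the + strand for Klf6.
Fos: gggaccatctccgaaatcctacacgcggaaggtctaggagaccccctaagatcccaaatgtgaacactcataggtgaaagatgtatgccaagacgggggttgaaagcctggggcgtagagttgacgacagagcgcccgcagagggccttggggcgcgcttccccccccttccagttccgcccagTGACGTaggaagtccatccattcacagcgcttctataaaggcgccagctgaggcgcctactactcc
Jun: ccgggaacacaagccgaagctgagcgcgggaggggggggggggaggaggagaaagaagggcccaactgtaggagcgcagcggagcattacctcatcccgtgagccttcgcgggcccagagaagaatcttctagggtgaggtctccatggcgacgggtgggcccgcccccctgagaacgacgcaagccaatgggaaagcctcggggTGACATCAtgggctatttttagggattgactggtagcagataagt
Atf3: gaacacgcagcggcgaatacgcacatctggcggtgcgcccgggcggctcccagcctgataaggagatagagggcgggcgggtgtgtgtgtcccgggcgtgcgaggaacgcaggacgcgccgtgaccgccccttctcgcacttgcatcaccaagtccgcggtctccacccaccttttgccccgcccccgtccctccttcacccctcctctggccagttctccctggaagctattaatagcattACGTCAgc
Dusp1: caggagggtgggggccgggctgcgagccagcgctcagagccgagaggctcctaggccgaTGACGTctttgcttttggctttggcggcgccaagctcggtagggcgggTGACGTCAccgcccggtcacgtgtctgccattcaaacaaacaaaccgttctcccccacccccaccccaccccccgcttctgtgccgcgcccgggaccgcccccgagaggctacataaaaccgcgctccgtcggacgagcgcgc
Klf6: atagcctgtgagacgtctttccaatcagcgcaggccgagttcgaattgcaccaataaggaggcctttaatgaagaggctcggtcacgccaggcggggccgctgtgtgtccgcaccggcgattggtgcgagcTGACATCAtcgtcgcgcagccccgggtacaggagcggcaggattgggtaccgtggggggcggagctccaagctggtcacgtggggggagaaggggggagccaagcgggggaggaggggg

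Dusp1 held the full element 143 bases before its start and a further core at 191 bases, Fos held a core at 66 bases and Atf3 a core at 8 bases. Jun and Klf6 each held TGACATCA, at 45 and 119 bases. Among 32851 mouse promoter windows of this length, 1.55% held TGACGTCA, 6.47% the core, 2.93% TGACATCA, 6.75% TGANTCA and 1.47% a CArG box. Fosb, Fosl2, Junb and Jund held none of these letters in this window.

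Markers of germinal centre B cells were bright on the arrays. Bcl6, the master regulator of the germinal centre, averaged 10.1, and Cd79b, a chain of the B cell receptor complex, averaged 12.1. The 15 array medians lay between 5.57 and 5.74. Lzlo replicate 3 and Dzlo replicate 3 stood apart from the others by neutrophil markers. The mean centred level of the 14 neutrophil markers was 2.92 in Lzlo replicate 3 and 1.56 in Dzlo replicate 3, with all 14 above their own means in both, and it lay between -1.08 and 0.43 in the other 13 arrays. Ly6g, which defines neutrophils, was at 6.71 in Lzlo replicate 3 and 5.25 in Dzlo replicate 3, with 3.63 to 4.66 elsewhere. In Lzlo replicate 3 the T cell markers were also at 1.47 and the macrophage and monocyte markers at 0.80. Lzlo replicate 4 had T cell markers at 0.61, above Dzlo replicate 3 (0.39), while the other 12 arrays lay between -0.47 and 0.19. In Lzlo replicate 4, 7 of the 11 T cell markers lay above their own means, against all 11 in Lzlo replicate 3. Cd3g, a chain of the T cell receptor complex, was highest in Lzlo replicate 4 (7.60). Its partner chains Cd3d and Cd3e were highest in Lzlo replicate 3 (8.43 and 8.02, against 7.32 and 6.15 in Lzlo replicate 4). Values without the 2 arrays high in neutrophil markers are given where they change a result.

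The first comparison asked whether AP-1 genes differed between light zone and dark zone cells over both affinities. None of the 10 genes passed limma at an adjusted p under 0.05, where 0.155% of all genes did (31 of 19938). By size, 5 of the 10 lay above 0 in the light zone, against 48.0% of all genes, and their median difference was 0.03, against -0.01 for all genes. In the reported fit the unadjusted p was under 0.05 for 2 of the 10, Atf3 and Ier2, against 4.38% of all genes. None of the 10 had values without overlap between the zones, as 0.176% of all genes did.

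The zones were also compared within each affinity. Among high-affinity cells 0 of the 10 passed limma (0.015% of all genes did), 2 had an unadjusted p under 0.05 (2.8% of all genes), 8 lay above 0 (48.8% of all genes) and 0 were without overlap (3.69% of all genes). Among low-affinity cells 0 of the 10 passed (0.01% of all genes did), 2 had an unadjusted p under 0.05 (3.53% of all genes) and 6 lay above 0 (48.6% of all genes). In both, the 2 were Atf3 and Ier2. The comparisons share their arrays with that over both affinities. Among low-affinity cells the unadjusted p of Ier2 in limma was 0.0479, and it missed 0.05 without both arrays high in neutrophil markers (0.166) and with most arrays left out singly (up to 0.150, without Lzlo replicate 3).

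The Fos proteins, which need a partner to bind DNA, came first by role. Fos averaged 5.25 ± 0.24 in Lzhi (SD, n = 3), 5.20 ± 0.22 in Lzlo, 5.17 ± 0.24 in Dzhi and 5.43 ± 0.16 in Dzlo (SD, n = 4 each). Its zone difference was -0.07 ± 0.11, with a 95% interval of -0.32 to 0.17. Fosb, a close relative of Fos, ran from 5.04 to 6.01 in light zone arrays and from 4.96 to 5.84 in dark zone arrays. Fosl2, which encodes Fra-2, ran from 5.29 to 6.22 in light zone arrays and from 5.49 to 5.97 in dark zone arrays. The zones overlapped for all 3 genes, with differences of 0.10 ± 0.16 for Fosb and -0.04 ± 0.15 for Fosl2. The mean signal of Fos was higher than that of 37.8% of all genes. The table holds no detection calls, and signals of different probe sets are not levels that can be compared between genes.

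Junb, a Jun protein, averaged higher in the light zone without passing the test. Junb was at 6.41, 6.80 and 7.85 in Lzhi and at 6.58, 6.86, 8.10 and 7.44 in Lzlo. Dark zone values were 6.22, 6.59, 7.10 and 6.13 in Dzhi and 6.55, 6.66, 7.32 and 6.83 in Dzlo. The zones overlapped, and the highest light zone arrays were Lzlo replicate 3 and Lzhi replicate 4. The difference was 0.46 ± 0.26 (unadjusted p = 0.107, adjusted p = 1 in limma), or 0.39 ± 0.24 without both arrays high in neutrophil markers. Leaving out single arrays gave 0.25 to 0.61, the lowest without Lzhi replicate 4, where Jun was at 0.40. Arrays carry an experiment code in their descriptions, taken here as 4 codes, A to D, with no Lzhi array of code D. Within a code, Junb was higher in the light zone cells in 7 of 7 pairs, by 0.03 to 0.78. Of these pairs, 2 join forms of code B that are written differently for the zones. Jun and Dusp1 were higher in the light zone cells in 5 of 7 pairs, Fosb in 4, Fos in 3, and Fosl2, Jund and Klf6 in 2 each. The share of all genes with 7 of 7 pairs in the same direction, as for Junb, Atf3 and Ier2, was not counted. With the 4 merged codes as a block in limma, the unadjusted p of Junb was 0.0247 (adjusted p = 0.561). With the title number as a block it was 0.00564 (adjusted p = 0.288). How many of all genes had an unadjusted p under 0.05 in these fits was not counted.

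Jun itself, the classical partner of Fos, had its zone difference among low-affinity cells carried by a single array. It was at 5.34, 5.78 and 5.36 in Lzhi and at 4.97, 5.36, 7.28 and 5.53 in Lzlo, against 4.98 to 5.36 in Dzhi and 5.29 to 5.47 in Dzlo. The zone difference over both affinities, 0.37 ± 0.26, became 0.12 without Lzlo replicate 3, and 0.14 ± 0.12 without both arrays high in neutrophil markers. Among low-affinity cells it was 0.42 ± 0.36, or -0.04 ± 0.17 without both arrays. Among high-affinity cells, which hold neither array, it was 0.31 ± 0.39, with an error of 0.16 in the fit without both. Jun was higher in the light zone in 3 of 3 high-affinity pairs of the same code, by 0.01 to 0.45. Among low-affinity pairs this held in 2 of 4. Jund, the family member that is present in resting cells, ran from 7.17 to 8.16 in light zone arrays and from 7.24 to 8.17 in dark zone arrays, with a difference of -0.03 ± 0.20.

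Atf3, a stress-induced partner of Jun proteins, had the lowest p of the 10 between zones, with lower values in the light zone. Its mean signal was higher than that of 45.2% of all genes, so it was absent from the setting that left dim genes out. Atf3 was at 5.26, 5.31 and 5.59 in Lzhi and at 5.11, 5.43, 5.52 and 5.38 in Lzlo. Dark zone values were 5.59, 5.65, 5.83 and 5.90 in Dzhi and 5.75, 5.61, 5.60 and 6.02 in Dzlo. Of the light zone arrays only Lzhi replicate 4 met the dark zone range, at its lower end. The difference was -0.37 ± 0.10, a 1.29-fold difference, with an unadjusted p of 0.00195 and an adjusted p of 0.268 in limma, which did not pass. Over all settings tried, the lowest adjusted p of any of the 10 genes in this comparison lay between 0.0843 and 0.503. Atf3 was lower in the light zone cells in 7 of 7 pairs of the same code. Among high-affinity cells the pairs of codes A, B and C differed by -0.32, -0.34 and -0.23. Pairs of low-affinity cells differed by -0.63, -0.18, -0.64 and -0.08 for codes A, B, C and D. Without both arrays high in neutrophil markers the difference was -0.42 ± 0.10 (adjusted p = 0.191). By level the groups ran Lzlo (5.36 ± 0.17), Lzhi (5.39 ± 0.18), Dzhi (5.74 ± 0.15) and Dzlo (5.74 ± 0.19, SD), and the groups of a zone differed by less than their spread.

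Ier2, a short-lived nuclear protein of the same early response, went the other way. Ier2 was at 5.76, 5.79 and 7.17 in Lzhi and at 5.76, 5.73, 6.60 and 6.20 in Lzlo. Dark zone values were 5.32, 5.37, 5.99 and 5.29 in Dzhi and 5.51, 5.36, 5.53 and 5.38 in Dzlo. Among low-affinity cells the zones did not overlap, and among high-affinity cells Dzhi replicate 3 lay inside the light zone range. The difference over both affinities was 0.69 ± 0.21, a 1.61-fold difference (unadjusted p = 0.00604, adjusted p = 0.513 in limma). Over the settings tried it ranged from 0.46 to 0.83. It was positive in 7 of 7 pairs of the same code. The 3 pairs of codes C and D differed by 0.82 to 1.18 and the 4 pairs of codes A and B by 0.25 to 0.44. The difference was 0.46 without Lzhi replicate 4 and 0.62 ± 0.22 without both arrays high in neutrophil markers. Among low-affinity cells alone, Atf3 and Ier2 were the 2 of 10 genes whose zones did not overlap, against 1.91% of all genes, with differences of -0.38 ± 0.13 and 0.63 ± 0.29. Without both arrays high in neutrophil markers these were -0.48 ± 0.15 and 0.48 ± 0.33.

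Dusp1 had the widest spread of the 10 genes. Dusp1 was at 6.92, 6.97 and 7.07 in Lzhi and at 6.60, 6.82, 8.85 and 7.59 in Lzlo. Dark zone values were 7.01, 6.94, 6.83 and 6.97 in Dzhi and 6.88, 6.35, 8.29 and 6.97 in Dzlo. The highest values were those of Lzlo replicate 3 and Dzlo replicate 3, the arrays high in neutrophil markers, and without these arrays Dusp1 ran from 6.35 to 7.59. The zone difference was 0.20 ± 0.32, or 0.16 ± 0.15 without both arrays. The part of other blood cells in these values was not tested. In sorted populations, fewer cells with a transcript and less transcript per cell cannot be told apart.

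Klf6, a zinc finger factor of the early response, showed the opposite order of arrays. Klf6 was at 7.45, 7.45 and 6.55 in Lzhi and at 7.87, 7.45, 6.06 and 7.48 in Lzlo. Dark zone values ran from 6.34 to 7.62 in Dzhi and were 7.92, 7.59, 6.58 and 7.95 in Dzlo. The lowest arrays were Lzlo replicate 3, Dzhi replicate 3, Lzhi replicate 4 and Dzlo replicate 3, which were the highest arrays of Fosl2. The zone difference was -0.13 ± 0.31, or -0.09 ± 0.22 without both arrays high in neutrophil markers. The same deposited value stands for Klf6 in 4 arrays and for Dusp1 in 3, so middle values of these genes may carry less detail than their decimals show, which was not tested.

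**Figure D1:**
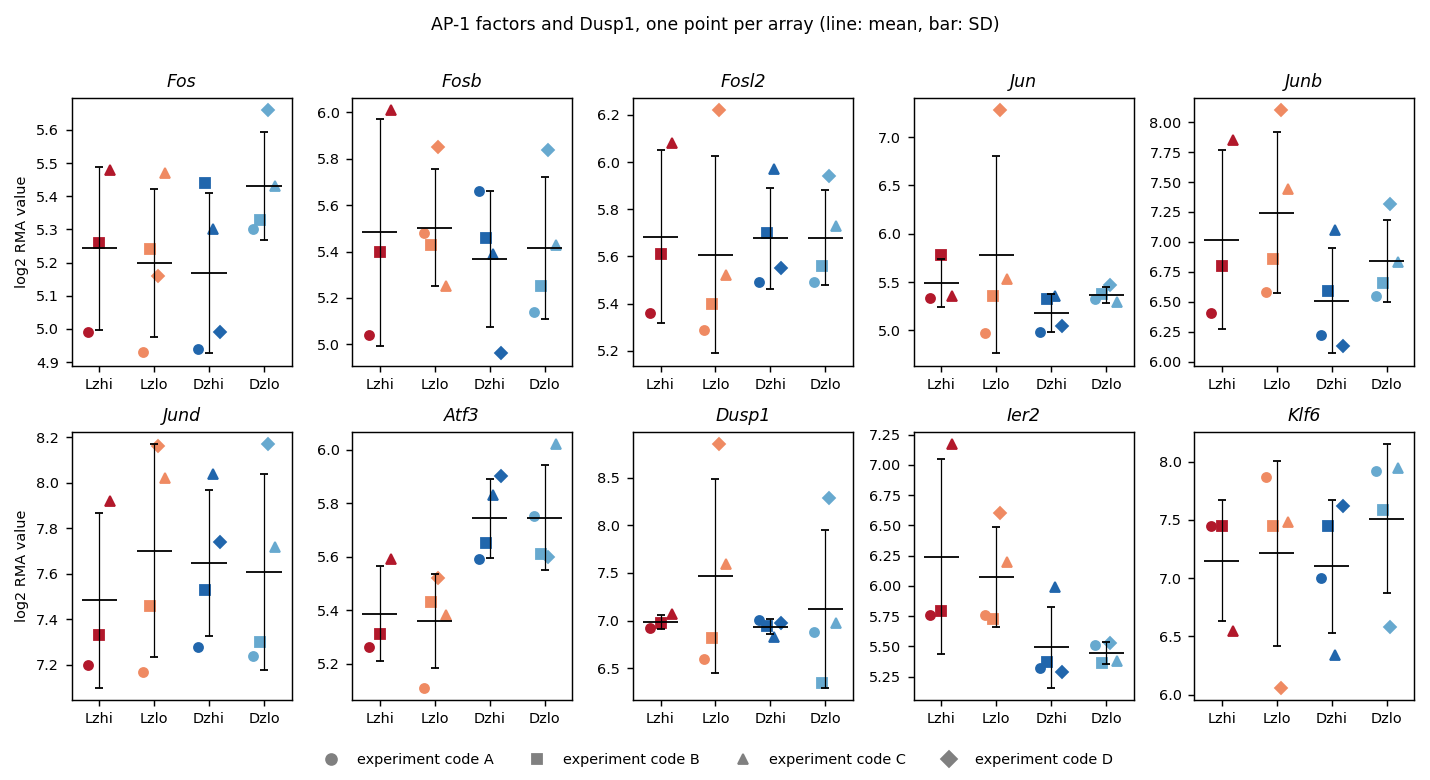
Log2 RMA value (vertical axis) of each of the 10 genes in the groups Lzhi, Lzlo, Dzhi and Dzlo, with a point per array, its shape giving the experiment code, a line at the group mean and a bar for the SD. Atf3 sits lower in the light zone groups (5.11 to 5.59 against 5.59 to 6.02), Ier2 higher, and Jun, Dusp1 and Klf6 are spread by single arrays.

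The affinity comparisons asked whether cells of high affinity differed from cells of low affinity in each zone. None of the 10 genes passed within either zone, over both zones or in the interaction. Limma called 0 genes of the whole array in each of these comparisons (a background of 0.0%). In the reported fit none of the 10 had an unadjusted p under 0.05 in any of them either. The background at that level was 4.0% of all genes for light zone cells, 1.6% for dark zone cells, 4.3% over both zones and 1.33% for the interaction. Without both arrays high in neutrophil markers, Klf6 had an unadjusted p in limma of 0.0199 over both zones (-0.59 ± 0.22, adjusted p = 0.998). In that setting its unadjusted p in limma was 0.0333 in the dark zone and 0.179 in the light zone. Over both zones it was 0.0356 with the replicate block and 0.264 with the 4 merged codes as a block. None was without overlap between affinities, against 4.55% of all genes among light zone cells and 1.11% among dark zone cells. Over both zones 3 of the 10 lay above 0 in high-affinity cells (50.3% of all genes), and in the interaction 7 did (49.7% of all genes).

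In the light zone, 4 of 10 genes lay above 0 in high-affinity cells, against 49.9% of all genes, with a median of -0.04. The largest difference was that of Dusp1, which averaged 6.99 ± 0.08 in Lzhi (SD, n = 3) and 7.47 ± 1.02 in Lzlo (SD, n = 4), a difference of -0.48 ± 0.47. Without Lzlo replicate 3 it was -0.02. Jun behaved alike, with a difference of -0.29 ± 0.39 that became 0.20 without that array. Junb turned too, with a difference of -0.22 ± 0.39, or 0.06 without that array. Ier2 had a difference of 0.17 ± 0.31, or -0.30 without Lzhi replicate 4 and 0.34 ± 0.33 without both arrays high in neutrophil markers. Atf3, which had the lowest p between zones, had one of 0.03 ± 0.14 by affinity. In the same comparison 13 of 14 neutrophil markers lay below 0, with a median of -1.02, and all 11 T cell markers, with a median of -0.66. Their part in the differences was not tested.

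In the dark zone, 2 of 10 genes lay above 0 in high-affinity cells, against 50.4% of all genes, with a median of -0.11. Fos had the lowest p, at 4.94, 5.44, 5.30 and 4.99 in Dzhi against 5.30, 5.33, 5.66 and 5.43 in Dzlo. The groups overlapped, and the difference was -0.26 ± 0.16 (unadjusted p = 0.112, adjusted p = 1 in limma). Klf6 differed by -0.41 ± 0.42, or -0.72 ± 0.30 without both arrays high in neutrophil markers (adjusted p = 1). It ranged from -0.72 to -0.16 with single arrays left out, the smallest without Dzhi replicate 3. Within codes A, B, C and D it was -0.92, -0.14, -1.61 and 1.04. Dusp1 differed by -0.18 ± 0.44, or 0.21 without Dzlo replicate 3. The intervals were wide: that of Dusp1 in the light zone ran from -1.50 to 0.54 and that of Klf6 in the dark zone from -1.30 to 0.48. Differences within these intervals were not excluded by these arrays. The interaction, the affinity difference in the light zone minus that in the dark zone, had a median of 0.05 over the 10 genes.

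**Figure D2:**
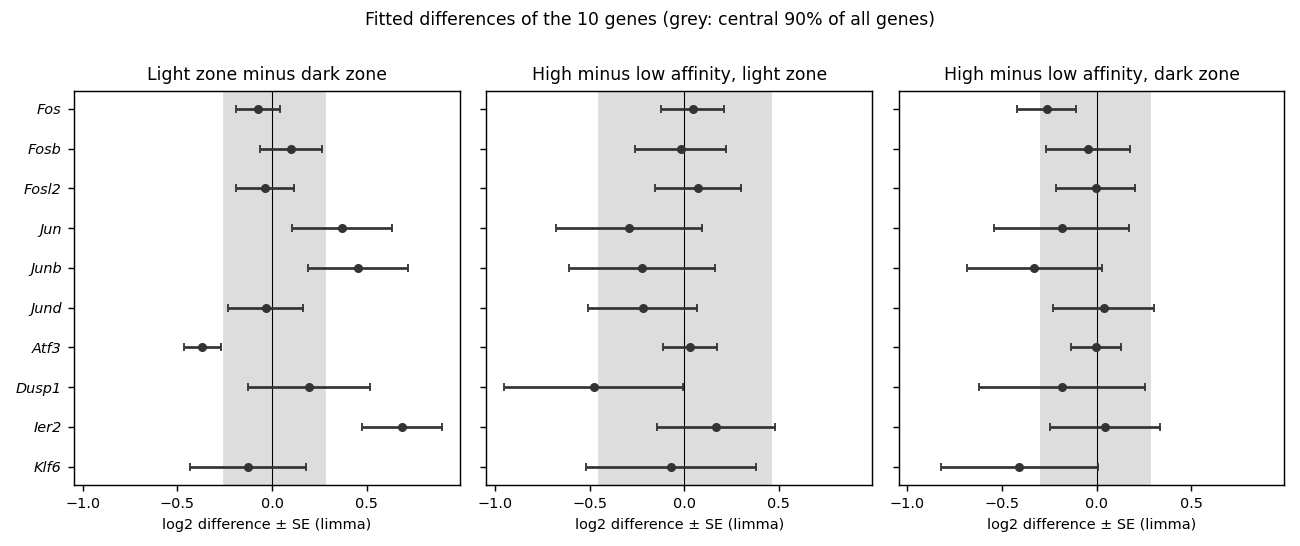
Difference of each gene on the log2 scale (horizontal axis) with its limma standard error, for light zone minus dark zone and for high minus low affinity in each zone, with the central 90% of all genes in grey. Atf3 (-0.37) and Ier2 (0.69) lie outside the grey band between zones with their whole bars, and the bars of Dusp1 and Klf6 are long in both affinity comparisons.

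Several of the 10 genes varied widely between arrays of a group. The SD within groups was 0.69 for Dusp1, 0.65 for Klf6, 0.56 for Junb and 0.56 for Jun (percentiles 94.6 for Dusp1 and 93.6 for Klf6 among all genes). For Atf3 it was 0.17 (percentile 24.4) and for Fos 0.22 (percentile 42.1), with Fosl2 and Fosb at percentiles 65.6 and 69.5. Array means of the 10 genes, each centred on its own mean, were highest in Lzlo replicate 3 (0.57), Lzhi replicate 4 (0.30), Dzlo replicate 3 (0.23) and Lzlo replicate 4 (0.18), and lowest in Dzhi replicate 1 (-0.26) and Lzhi replicate 1 (-0.24). The high arrays came from both zones and both affinities, and all were of codes C or D, while the lowest were of code A. Other arrays of codes C and D lay lower, with Dzhi replicate 4 (code D) at -0.19.

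Over the 15 arrays, which share groups and experiment codes, several genes ran together. Junb followed Ier2 (Pearson r = 0.84, Spearman rho = 0.74), Fosl2 (0.78 and 0.68) and Jund (0.76 and 0.74). Within groups, with each group mean removed, Junb and Fosl2 had r = 0.96. Klf6 ran against Fosl2 (r = -0.82, rho = -0.54) and below 0 against each of the other 9. Atf3 and Junb had r = -0.07 over all arrays and 0.49 within groups, and Fos and Junb 0.54 and 0.70. Jun and Dusp1 had r = 0.76 and rho = 0.39, and both were highest in Lzlo replicate 3. Of genes that share a promoter motif above, Fos and Atf3 had r = 0.30, Fos and Dusp1 0.28, Atf3 and Dusp1 -0.02, and Jun and Klf6 -0.56.

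Other levels moved with these arrays. In Lzhi replicate 4 the neutrophil markers were at -0.71, below their mean, while Ier2 and Junb stood at 7.17 and 7.85. In Lzlo replicate 3 and Dzlo replicate 3 the heat shock and metal response genes, chaperones and metallothioneins induced by stress, had their lowest mean levels, -0.34 and -0.33, against -0.11 to 0.21 elsewhere. The list was split, with 9 and 7 of its 20 genes above their own means in these arrays. The genes of that list named here were chosen after their values were seen. The metallothioneins Mt1 and Mt2 were at 7.26 and 5.62 in Lzlo replicate 3 and at 6.47 and 5.31 in Dzlo replicate 3. Their means over all arrays were 6.20 and 4.98. Hspd1, the mitochondrial chaperonin HSP60, was at 9.81 and 9.78 in Lzlo replicate 3 and Dzlo replicate 3, against 11.1 to 11.9 elsewhere. Hspa1a, the inducible HSP70 gene with a near-identical copy, was at 6.81 and 6.75 there, against 6.02 to 6.39 elsewhere. The part of handling stress in the AP-1 values was not tested.

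**Figure D3:**
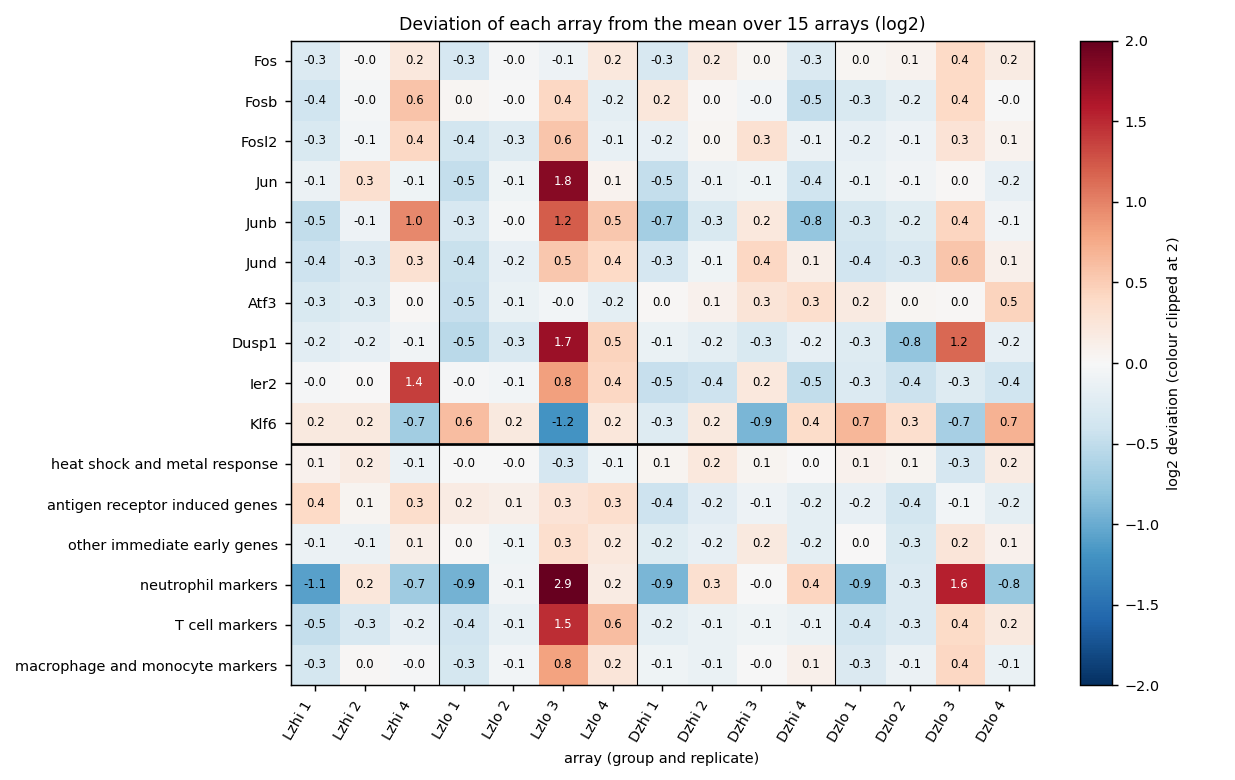
Deviation of each array (columns, by group and replicate) from the mean over 15 arrays on the log2 scale, for each of the 10 genes and, below the line, for the mean of 6 gene lists. Lzlo replicate 3 is high in Jun, Dusp1, Junb and neutrophil markers (2.92) and low in Klf6, and Lzhi replicate 4 is high in Junb and Ier2 with neutrophil markers at -0.71.

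The genes most like the mean of the 10 over 15 arrays, among 9393 named genes with a mean level at or above the median gene, were Trmt112 (Pearson r = 0.93, Spearman rho = 0.94), Dad1, Ptms, Pgls, Slc2a1, Lasp1, Emp3, B4galt5, Crlf2 and Tshz3, the last at r = 0.91. None of these belongs to the immediate early lists used here. Those most like Fos alone were Nppc (r = 0.84, rho = 0.80), Cops9, Bri3, Pimreg and Myh14 (r = 0.81).

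The other genes of the pathway were read for the zone comparison from lists. Over all genes, 0.155% passed limma in this comparison and 48.0% lay above 0. Of 20 measured AP-1 and bZIP relatives 1 passed limma, higher in the light zone: Batf, which pairs with Jun proteins in lymphocytes, by 0.91 ± 0.14 (adjusted p = 0.0150). Of the others, 8 lay above 0 and 11 below, with a list median of -0.01, and Atf6 had a difference of 0.41 ± 0.13 (adjusted p = 0.552). None of 16 MAP kinase feedback genes passed, with a median of 0.05, and Dusp10, a phosphatase of JNK and p38, had a difference of 0.57 ± 0.19 (adjusted p = 0.600) and Spred1, an inhibitor of the pathway, one of 0.31 ± 0.15. None of 20 MAP kinases and serum response factors passed, with a median of 0.11, and Elk1, a target of ERK that acts on the Fos promoter, had one of 0.40 ± 0.11 (adjusted p = 0.274). Map3k5, a stress kinase upstream of JNK and p38, had one of -0.45 ± 0.14 (adjusted p = 0.536). None of 29 other immediate early genes passed, with 16 above 0 and a median of 0.07, and Id2 and Plk3 had differences of 0.81 ± 0.23 and 0.48 ± 0.14 (adjusted p = 0.372 and 0.375). None of 20 heat shock and metal response genes passed, with 8 above 0 and a median of -0.09, and Hmox1, a haem-degrading enzyme, and Hsf2, a heat shock factor, had differences of -0.24 ± 0.13 and -0.37 ± 0.26 (adjusted p = 1 each).

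Of 19 measured genes that the antigen receptor induces, 2 passed, both higher in the light zone, against 0.155% of all genes. Of the 19, 16 lay above 0, against 48.0% of all genes. Their median was 0.44, beside a median of 0.03 for the 10 AP-1 and partner genes. The 2 were Egr2, at 8.49 to 9.28 in light zone arrays against 7.08 to 7.99 in dark zone arrays (1.43 ± 0.17, adjusted p = 0.00324), and Nfkbia, the inhibitor of NF-kappaB, with a difference of 0.91 ± 0.13 (adjusted p = 0.0100 in limma). Egr1 had a difference of 0.99 ± 0.26 (adjusted p = 0.265) and Nr4a1 one of 0.33 ± 0.17 (adjusted p = 1). The difference between the lists was not tested, and the lists were chosen with earlier results of these data known. Of 17 genes of the antigen receptor signal chain 0 passed, with a median of 0.07, and Prkcb, a kinase on the way to NF-kappaB, had a difference of 0.45 ± 0.12 (adjusted p = 0.315), and Pik3ap1, an adaptor of PI3 kinase, one of 0.41 ± 0.12.

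**Figure D4:**
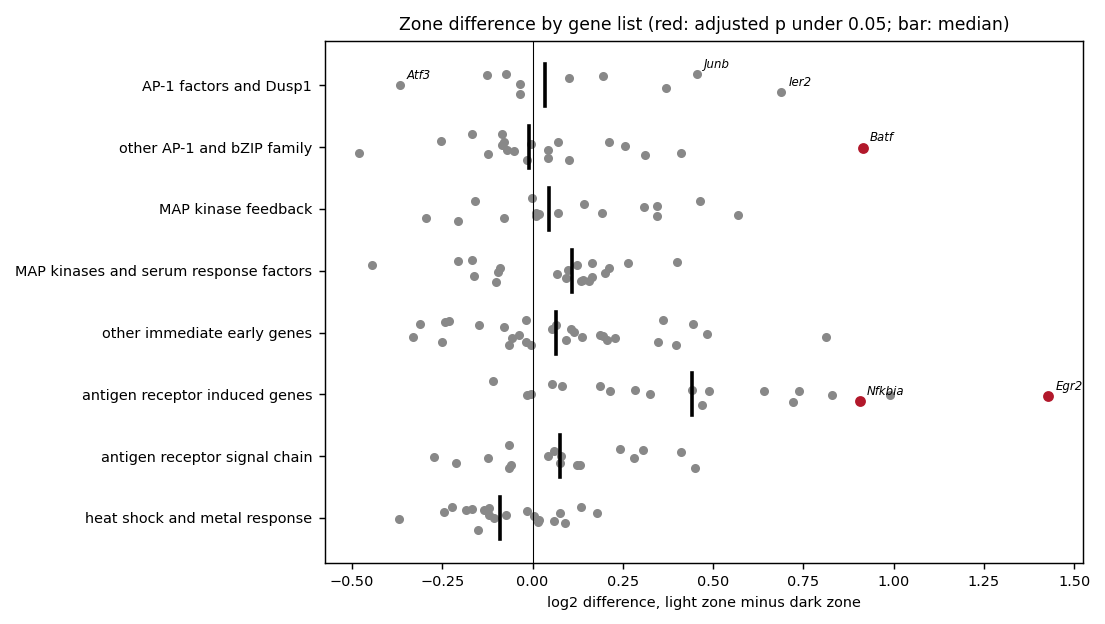
Difference between light zone and dark zone on the log2 scale (horizontal axis) for each gene of 8 lists, with a bar at the list median and red points for genes at an adjusted p under 0.05. The 10 AP-1 and partner genes lie between -0.37 and 0.69 with a median of 0.03 and no red point, and the antigen receptor induced genes have a median of 0.44. The lists were chosen with earlier results of these data known, and their difference was not tested.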

How the data were processed

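The authors deposited log2 values of 28853 probe sets on 15 arrays, 1 sample per array, and RMA, a method that removes background, equalises array distributions and combines probes, made them per the submitters' processing notes. The notes name build mm8; the software version is not given in the sources used here. RNA was amplified before labelling, per the labels' protocols, and RMA compresses differences of dim probe sets. Array number limits the precision.

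Groups came from titles. Probe sets with 1 gene in the platform annotation (21789) were kept, the one with the highest mean per gene, which left 19938 genes. Limma 3.58.1 in R 4.3.3 fitted 4 group means with 11 residual degrees of freedom. Benjamini-Hochberg adjustment ran over all genes. Promoters came from RefSeq. Figures were drawn with matplotlib 3.10.9. The steps were tested on simulated data.

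The members and lists were chosen with earlier results of these data known. Of 256 entries in 15 lists, 28 were unmatched and are not analysed here. The named genes are the 10 members, list genes that pass or have the 2 highest absolute t between zones, and the most like genes over arrays. Most genes of the marker lists are left out of the text for length. Others were chosen after their values were seen.

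Alternatives changed normalization, filter, probe set rule, variance model, weights, block and the arrays included.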

Additional observations from a re-analysis of the deposited data

Results flagged for a closer look

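Ier2 in Dzhi replicate 3, at 5.99, lay far from the other 3 Dzhi arrays, which were at 5.29 to 5.37. Of 30 such checks of a group of 4 arrays this was the only value to stand out, and chance gives about 1 in 20. Junb was also higher in that array (7.10) than in the other Dzhi arrays (6.13 to 6.59).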

How the results depend on the processing

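None of the 10 genes passed in any comparison run under 29 settings, the reported one included, and the lowest adjusted p was 0.0843, for Atf3 between zones with array weights. The median over the 10 genes between zones ranged from 0.00 to 0.13, and was 0.20 over the 5 left when dim genes were left out. Over all genes, 31 passed between zones as reported, 49 with quantile normalization repeated, 68 with array weights (a fit that did not fully converge), 83 with the replicate block, 90 with 4 merged codes as a block and 18 to 37 with single arrays left out. Over all settings, 1 to 11 genes passed between zones among high-affinity cells (3 as reported), 0 to 30 among low-affinity cells (2 as reported), and 0 to 3 for affinity in the dark zone and 0 to 2 over both zones (0 as reported). Deviations of same-numbered arrays of different groups were correlated (r above 0.1) in 15 of 21 pairs (mean 0.227). For different numbers this held in 22 of 63 pairs (mean -0.0615). Arrays of the same merged code passed in 16 of 21 pairs (mean 0.288) and those of different codes in 21 of 63 (mean -0.082). Both blocks stayed alternatives, as not every pair passed, though a mean above that of other pairs does not need every pair to pass. The reported p-values leave out this pairing, and for some genes their errors are larger than with a block. Between zones, the standard error of Jund was 0.20 as reported, 0.08 with the replicate block and 0.09 with 4 merged codes. Those of Fosb were 0.16, 0.16 and 0.17. The differences within a code in the report are values by code, with no test. With the title number as a replicate block, the lowest adjusted p was 0.125 (Atf3 and Ier2 between zones), Junb had 0.56 ± 0.17 (adjusted p = 0.288), and the block changed no call. With the 4 merged codes as a block, adjusted p was 0.138 for Atf3 and 0.153 for Ier2, and Junb had 0.51 ± 0.20 (adjusted p = 0.561). Values without a call changed sign near 0. Between zones, Fosl2 was 0.03 and Jund 0.04 with the replicate block, 0.01 and 0.03 with 4 merged codes as a block, and 0.06 and 0.05 with the 5 codes as written. For affinity in the light zone, Jun was 0.15 with array weights, and Jun and Junb were 0.20 and 0.06 without code D and also, chosen after seeing the data, without Lzlo replicate 3 and Dzlo replicate 3. For affinity in the dark zone, Dusp1 was 0.00 with array weights, 0.20 without code D and 0.21 without those arrays. The cause was not tested. Leaving out each array in turn gave ranges that cross 0 between zones of -0.03 to 0.21 for Fosb, -0.14 to 0.05 for Fosl2, -0.14 to 0.06 for Jund, -0.04 to 0.39 for Dusp1 and -0.28 to 0.07 for Klf6. In the light zone affinity ranges were -0.57 to 0.20 for Jun, -0.64 to 0.08 for Junb, -0.07 to 0.09 for Atf3 and -0.30 to 0.41 for Ier2, and in the dark zone -0.44 to 0.21 for Dusp1. The fit to the 2 compared groups alone was run for the 4 comparisons of 2 groups.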
